A study of Mus musculus with 4 samples.

Results

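Transporters of 3 protein families were examined in mouse liver during fasting and refeeding. The families are the ATP-binding cassette (ABC) transporters of subfamilies A, B, C, D and G, the organic anion transporting polypeptides (OATPs, Slco genes), and the organic ion carriers of the Slc22a family. Genes were chosen by name alone, as every gene probe whose symbol in the scanner files begins with Abca, Abcb, Abcc, Abcd, Abcg, Slco or Slc22a followed by a number, with 1 Abcb gene left out. The choice took in 79 of the 31829 gene names on the array, read by 100 probes on 109 spots. Of these 79 genes, 51 had a probe that passed the filter on dim spots, compared with 16102 genes over the whole array.

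ABC transporters use ATP to move lipids, sterols, bile constituents, drugs and drug conjugates across membranes, and most of those in hepatocytes face either the bile canaliculus, the blood, or the inside of an organelle. OATPs and Slc22a carriers work mainly in the other direction, bringing bile acids, steroid conjugates, drugs, organic cations and carnitine from the blood into the cell. In liver they are best known for setting how fast drugs and endogenous metabolites are cleared.

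All livers came from male C57BL/6J mice (strain given as C57/Bl6 in the labels) aged 8 to 12 weeks. Both groups lost their food for 24 h. The fasted group was taken at that point, whereas the refed group then had food for 2 h, so the refed mice had also been fasted. Total RNA of 4 fasted and 4 refed livers, 200 ng from each, was read on 4 two-colour oligonucleotide arrays with 1 fasted and 1 refed liver on each, paired at random. An array is called a replicate here. The fasted liver carried the red dye Cy5 on replicates 1 and 2 and the green dye Cy3 on replicates 3 and 4. Ratios are log2 values of the fasted liver's signal divided by the refed liver's, positive where fasting gave the higher signal, and levels are log2 signals of 1 channel after normalization. Levels were not compared between genes, because each gene has its own probe. With 4 arrays, precision is limited by their number throughout.

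Some measures touch all genes. The median spot signal per array was 40 to 75 in red and 44 to 96 in green, and no spot was saturated. All 8 hepatocyte markers on the list were detected and 0 of them were called. Of 11 pancreatic acinar markers on the array 3 were detected, with a mean ratio of -3.93 on replicate 3, compared with -0.06 to 0.04 on the remaining arrays. The 3 detected erythroid markers of 4 had mean ratios of 1.73 and 1.99 on replicates 1 and 3, compared with -0.27 and 0.20 on replicates 2 and 4. The part of these cells in the transporter ratios was not tested. In whole tissue, fewer cells of a type and less RNA per cell cannot be told apart.

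Upstream sequences are shown for some of the genes with the highest ratios that had a window in the promoter table. Abcg5 and Abcg8 encode the partners of 1 sterol exporter and are transcribed in opposite directions from neighbouring start sites. The bases that lie between both starts (chr17:84683012-84683120, plus strand, GRCm38.p6, from RefSeq) are shown because a single stretch precedes both genes. Capitals mark matches to AGATAA on either strand, a GATA-type motif picked after the stretch had been read. Upstream bases of Abcb4 (chr5:8893621-8893720, plus strand) and Slc22a5 (chr11:53891704-53891823, minus strand) are shown because these genes had some of the highest ratios. Here capitals mark TGACG on either strand, the short form of the cyclic AMP response element that CREB, the factor the study was built around, recognises.
Abcg5 and Abcg8: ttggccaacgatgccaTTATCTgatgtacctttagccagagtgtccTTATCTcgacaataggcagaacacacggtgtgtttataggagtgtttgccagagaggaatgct
Abcb4: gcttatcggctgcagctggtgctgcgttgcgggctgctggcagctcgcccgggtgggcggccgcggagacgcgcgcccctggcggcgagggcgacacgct
Slc22a5: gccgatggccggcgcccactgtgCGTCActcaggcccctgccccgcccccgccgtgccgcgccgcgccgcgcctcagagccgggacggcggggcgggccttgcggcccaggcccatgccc
The Abcg5 and Abcg8 stretch of 109 bases held 2 matches to AGATAA, a motif found in 11.2% of the 32851 promoter windows of the RefSeq table. The Slc22a5 match to TGACG ended 93 bases upstream of the start. Of the 51 detected transporter genes 37 had a window in the table, and 5 of these (Slc22a5, Slc22a17, Abcg2, Abcd3 and Slco2b1) held TGACG in a window, compared with 23% of all genes in the table. The full element TGACGTCA, which contains TGACG, was in the window of Abcg2 and in a window of 2.03% of all genes. A match is a description of letters and not of binding.

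The highest ratios of fasted over refed liver belonged to the carnitine carrier Slc22a5, the uptake carrier Slco1a4 and the biliary phospholipid exporter Abcb4, with means of 0.68, 0.62 and 0.55, and the lysosomal carrier Abcd4 and the sterol exporter Abcg5 and Abcg8 came next. No transporter gene passed the test, in either direction. The limits were a limma adjusted p under 0.10 together with a 1.5-fold change, and 0 of 51 genes met them, compared with 3.94% of all detected genes (1.81% higher and 2.12% lower in fasted liver). Looser rules, counted in both directions together, gave shares of transporters near or below those of all genes. An unadjusted p under 0.05 was reached by 10 of 51 genes (19.6%, compared with 22% of all genes). Without the fold limit, 3 genes passed at an adjusted p under 0.10 (Abcb4, Abcd4 and Abcg8, 5.88%, compared with 11.2%), all of them higher in fasted liver, where 4.96% of all genes passed in that direction. The significance analysis of microarrays (SAM) named in the study's methods, rebuilt here, called 1 gene, Slc22a5 (1.96%, compared with 4.27%). With a term for the dye in the limma model 2 genes were called, Slc22a5 and Slco1a4 (3.92%, compared with 4.37%). Without the fold limit that model passed 14 genes (27.5%, compared with 26.7%).

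The ratios were small. Over the 51 genes the mean ratio ran from -0.29 (Abcb9) to 0.68 (Slc22a5) with a median of 0.04, and the median over all detected genes was 0.0033. Of the transporter genes 31 had a positive and 20 a negative mean ratio, compared with 8174 and 7928 of all genes, and under median centring the transporters' median was -0.00099. The median size of the ratio was 0.13 for the transporters and 0.11 for all genes, and the median standard error was 0.11 and 0.09. For 38 genes (74.5%, compared with 82.5% of all genes) the 95% interval lay inside 1.5-fold in both directions, so that a larger change of the mean fell outside those intervals. These intervals hold for the background step used here. For dim probes, such as those of Abca9, Abcb1a, Abca17 and Abcd2, another background step moved the mean beyond them, so they do not bound the change of such genes. The other 13 genes had intervals reaching beyond 1.5-fold, and for them a change of that size was neither called nor outside the interval. One sign on all 4 arrays was seen for 14 genes (27.5%, compared with 29.9%). Of the 51 genes 47 were above background in both conditions, and the genes with one sign include Abca9, which was not. The plot of the ratios on each array shows the transporter genes by role.

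**Figure D1:**
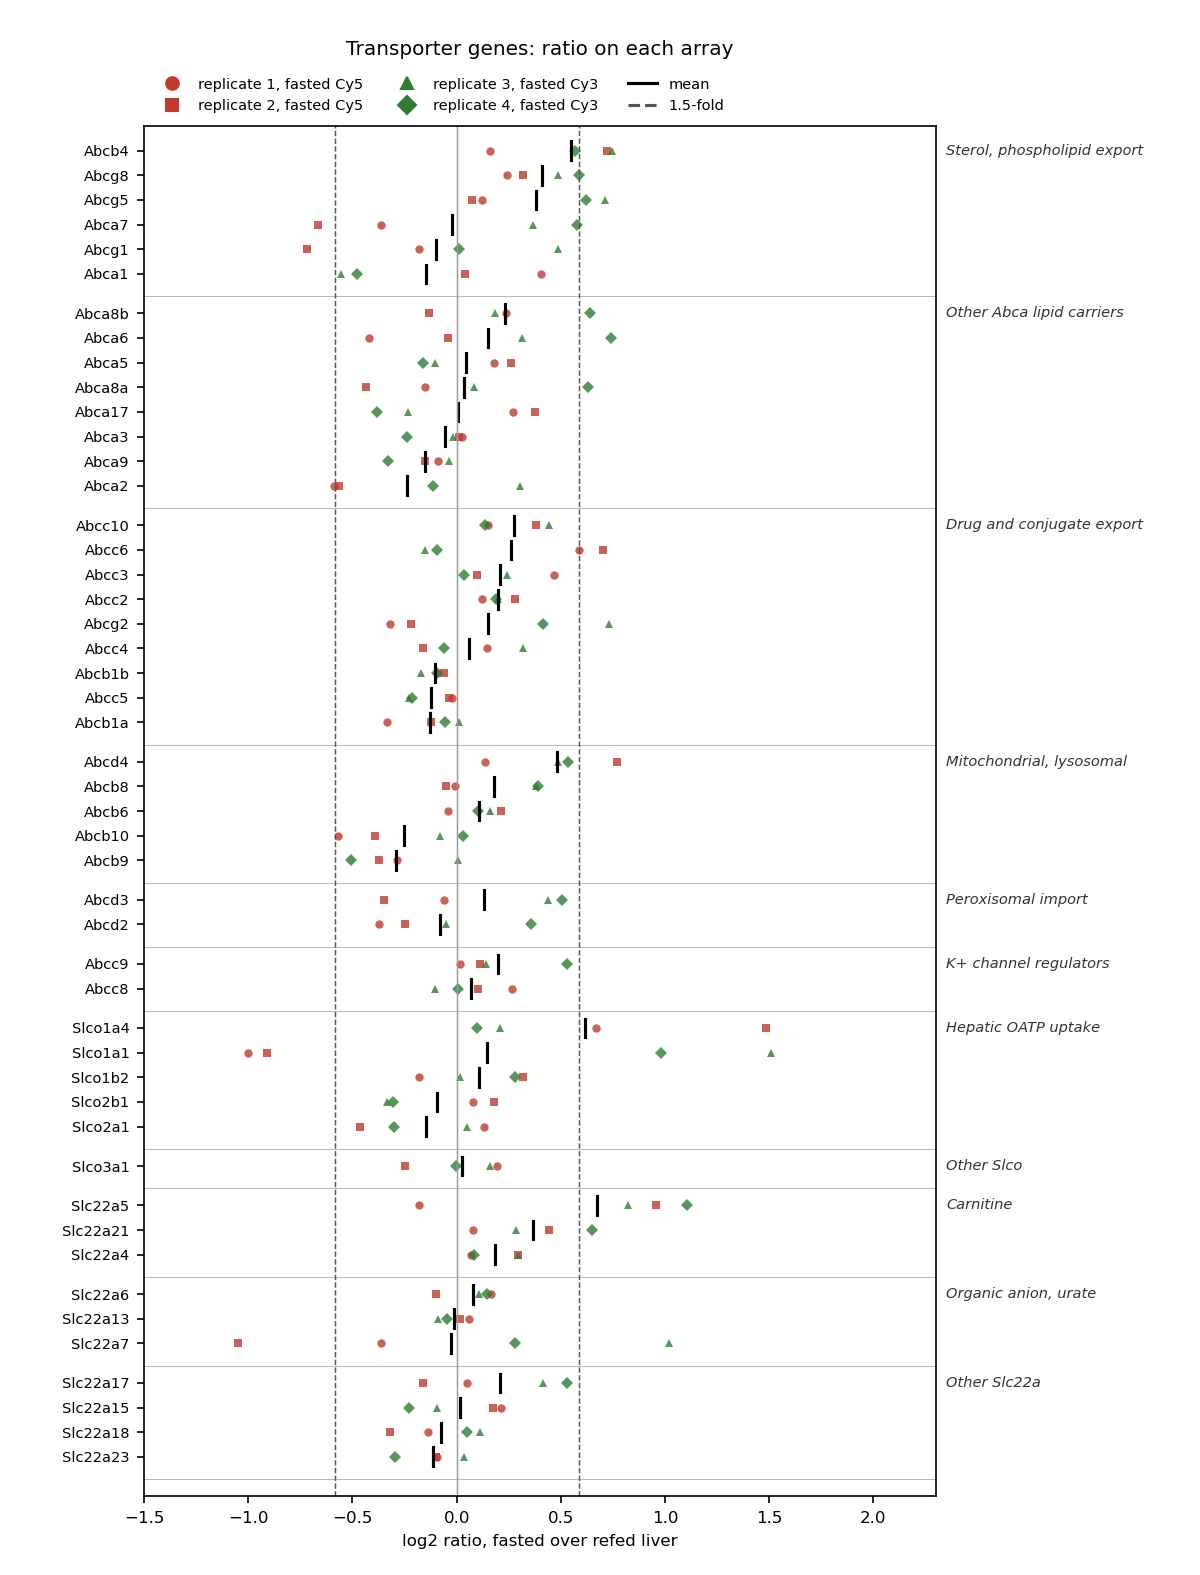
Log2 ratio of fasted over refed liver (horizontal axis) for 48 detected transporter genes, grouped by role, where each symbol is 1 array, red where the fasted liver carried Cy5 and green where it carried Cy3, black bars are means of 4 arrays and dashed lines mark 1.5-fold. The means of Slc22a5 (0.68) and Slco1a4 (0.62) lie past the 1.5-fold line, and for Slco1a1 the red and green symbols lie on opposite sides of 0.

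Carnitine carriers held the highest ratio. Slc22a5 encodes OCTN2, the high-affinity carnitine transporter of the plasma membrane, and carnitine is needed to carry long-chain fatty acids into mitochondria. Its log2 level was 8.99, 9.33, 9.08 and 9.47 in the fasted livers of replicates 1 to 4 and 9.17, 8.38, 8.25 and 8.37 in the refed livers. The groups overlapped through replicate 1, whose refed liver was higher than 2 of the fasted livers, while the other 3 refed livers lay below every fasted liver. The ratio was -0.18, 0.95, 0.82 and 1.11 on the 4 arrays, a mean of 0.68 (1.60-fold, SD 0.58, n = 4, 95% interval 0.16 to 1.19, limma adjusted p = 0.128). With a dye term the limma adjusted p was 0.0516, and without replicate 1 the mean was 0.96 and the gene was called higher. With the background fitted on all spots the mean was 0.24 and the gene was not called.

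Slc22a21 encodes the related mouse carnitine carrier OCTN3. Its log2 level was 6.81, 6.93, 6.81 and 7.32 in fasted and 6.73, 6.48, 6.53 and 6.67 in refed livers, and the groups did not overlap. The mean ratio was 0.36 (SD 0.24, n = 4, 95% interval 0.11 to 0.62, limma adjusted p = 0.11), positive on all arrays. This dim probe was sensitive to the background step, with a mean ratio of 0.68 after plain background subtraction and 0.94 from the scanner software's processed signals, and it was called higher under both. With the background fitted on all spots the mean was 0.13 and the gene was not called. Slc22a4, which encodes OCTN1, a carrier of ergothioneine and other zwitterions, had a mean ratio of 0.19 (SD 0.13, n = 4, limma adjusted p = 0.248) and was also positive on all arrays. All 3 detected genes of this list of 4 thus had positive mean ratios, with a median of 0.36, and 0 were called. Slc22a16 was not detected.

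Exporters of sterols and phospholipids into bile had the next group of positive ratios. Abcb4 encodes the canalicular phospholipid flippase that moves phosphatidylcholine to the outer leaflet, from where bile takes it up. Its log2 level was 14.24, 14.34, 14.34 and 14.30 in fasted livers and 14.09, 13.62, 13.60 and 13.73 in refed livers. The fasted livers lay close together, the refed livers were spread more widely, and the groups did not overlap. The ratio was 0.16, 0.72, 0.74 and 0.57, a mean of 0.55 (1.46-fold, SD 0.27, n = 4, 95% interval 0.27 to 0.83, limma adjusted p = 0.0476). Abcb4 therefore passed the limit on p and not that on fold, and without replicate 1 it was called at 0.68.

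Abcg5 and Abcg8, whose shared upstream stretch is printed above, encode the heterodimer that excretes cholesterol and plant sterols into bile. Abcg8 had log2 levels of 7.39, 7.46, 8.06 and 7.61 in fasted and 7.14, 7.14, 7.58 and 7.02 in refed livers. The groups overlapped only because the refed liver of replicate 3 was higher than the fasted livers of replicates 1 and 2. Its ratio was 0.24, 0.32, 0.48 and 0.59, a mean of 0.41 (1.33-fold, SD 0.16, n = 4, 95% interval 0.20 to 0.61, limma adjusted p = 0.0478), past the limit on p alone. After plain subtraction (0.59) and from the processed signals (0.61) it was called higher, while with the background fitted on all spots the mean was 0.15 and it was not called.

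Abcg5 had log2 levels of 12.04, 11.80, 12.52 and 12.27 in fasted and 11.92, 11.72, 11.80 and 11.65 in refed livers. Its ratio was 0.12, 0.07, 0.71 and 0.62, a mean of 0.38 (SD 0.33, n = 4, 95% interval 0.06 to 0.70, limma adjusted p = 0.16). The groups overlapped through the fasted liver of replicate 2. Thus both partners were positive on all arrays, and Abcg5 differed between dye orientations, at 0.10 on average where the fasted liver carried Cy5 and 0.67 where it carried Cy3. Under median centring the mean of Abcg5 was 0.23.

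For the other detected members of this list the direction was undetermined. Each 95% interval spanned both signs, and each mean ratio had opposite signs in the dye orientations. Abca1, which loads cholesterol and phospholipid onto apolipoprotein A-I, had ratios of 0.40, 0.04, -0.56 and -0.48 and a mean of -0.15. Abcg1, which passes cholesterol to high-density lipoprotein, averaged -0.10 (SD 0.50, n = 4) and Abca7, a close relative of Abca1, -0.02 (SD 0.59, n = 4). Of 7 genes on the list 6 were detected, 3 with positive and 3 with negative mean ratios, with a median of 0.18. Abcg4 was not detected.

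The plot of levels in each liver shows Slc22a5, Slc22a21, Abcb4, Abcg5 and Abcg8 together with Abcd4, Slco1a4 and Slco1a1.

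**Figure D2:**
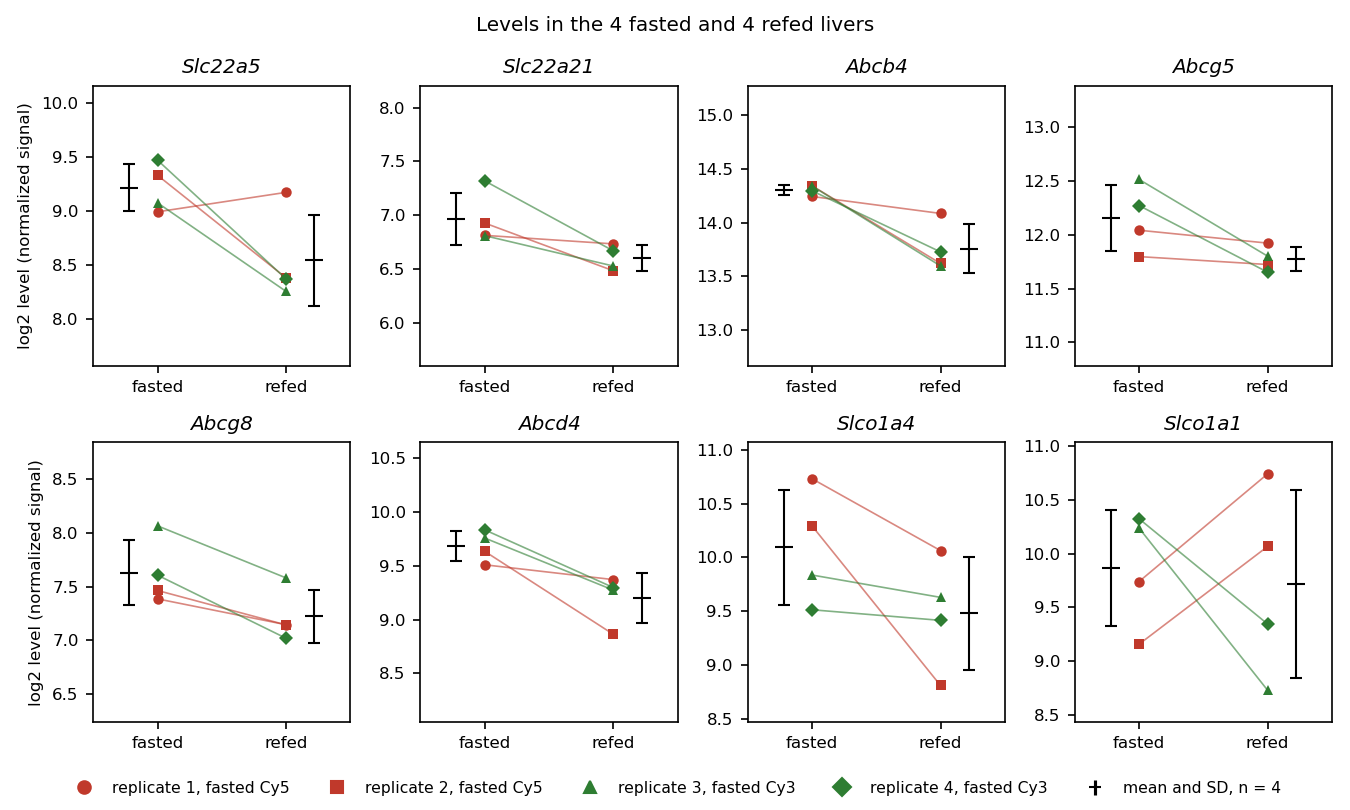
Log2 level (normalized signal) of 8 transporter genes in each fasted and refed liver, where lines join the livers of 1 array, red where the fasted liver carried Cy5 and green where it carried Cy3, and black bars give mean and SD (n = 4). Every vertical axis spans the same range. Levels of Abcb4, Abcd4 and Slc22a21 do not overlap between groups, and the lines of Slco1a1 cross.

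Levels of the 4 fasted and 4 refed livers did not overlap for 4 of 51 transporter genes (Abcb4, Abcd4, Slc22a21 and Abcc10), all higher in fasted liver. This is 7.84%, compared with 6.09% of all genes that were separated in that direction, and 0 transporter genes were separated in the other direction, compared with 7.83% of all genes.

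Transporters of mitochondria and lysosomes included the third gene past the limit on p. Abcd4 encodes a lysosomal protein needed to release vitamin B12 into the cytosol. Its log2 level was 9.51, 9.63, 9.76 and 9.83 in fasted and 9.37, 8.86, 9.27 and 9.30 in refed livers, so that every fasted liver was above every refed one. The ratio was 0.14, 0.77, 0.48 and 0.54, a mean of 0.48 (1.40-fold, SD 0.26, n = 4, 95% interval 0.21 to 0.75, limma adjusted p = 0.0624). Without replicate 1 it was called at 0.60, and with the background fitted on all spots the mean was 0.27 and it was not called.

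The lowest ratios of all transporters were in the same list. Abcb9, a lysosomal peptide transporter, had ratios of -0.29, -0.37, 0.0047 and -0.51 (mean -0.29, SD 0.22, n = 4, 95% interval -0.53 to -0.05, limma adjusted p = 0.158). Abcb10, a mitochondrial inner membrane protein linked to heme synthesis, averaged -0.25 (SD 0.28, n = 4, limma adjusted p = 0.278). The mitochondrial proteins Abcb6 and Abcb8 had means of 0.11 and 0.18, and the second probe of Abcb8, which is dimmer, read -0.0030. The list's median over 6 genes was 0.07, with 4 positive and 2 negative.

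Hepatic OATPs included Slco1a1, the detected transporter with the widest spread between arrays. Slco1a4 encodes an OATP of the basolateral membrane that takes up bile acids, cardiac glycosides and other amphipathic compounds. Its log2 level was 10.73, 10.29, 9.84 and 9.51 in fasted and 10.06, 8.81, 9.63 and 9.41 in refed livers. Only the refed liver of replicate 2 stood well below the rest, and the groups overlapped. The ratio was 0.67, 1.49, 0.21 and 0.10, a mean of 0.62 (1.53-fold, SD 0.63, n = 4, 95% interval 0.07 to 1.16, limma adjusted p = 0.184). Replicate 2 carried much of it, since the mean without that array was 0.33. The orientations also differed, at 1.08 on replicates 1 and 2 and 0.15 on replicates 3 and 4, and with a dye term the limma adjusted p was 0.0279.

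Slco1a1, a neighbouring OATP gene with a similar substrate range, had the largest split between dye orientations of any detected transporter. Its log2 level was 9.74, 9.16, 10.24 and 10.32 in fasted livers and 10.74, 10.07, 8.73 and 9.35 in refed livers. The ratio was -1.0, -0.91, 1.51 and 0.98, so that the fasted liver was lower on both arrays where it carried Cy5 and higher on both where it carried Cy3. The mean of 0.14 (SD 1.29, n = 4, 95% interval -0.94 to 1.23, limma adjusted p = 0.901) leaves the direction undetermined, and without replicate 3 or 4 it was negative (-0.31 and -0.13), as it was with the background fitted on all spots (-0.38). The first 30 bases of the probes of both genes are printed to identify them, and how far either probe also binds transcripts of related Slco1a genes was not tested.
Slco1a1: gatattctcaaagactactttcttatactc
Slco1a4: tatctcggtggatatgtgattgcctaatac
The remaining OATPs of the list had smaller ratios. Slco1b2, the liver-specific OATP of rodents, averaged 0.11 (SD 0.23, n = 4), Slco2b1 -0.09 (SD 0.26, n = 4) and the prostaglandin transporter Slco2a1 -0.15 (SD 0.28, n = 4). All 5 genes of the list were detected and 0 were called. Of 10 further Slco genes only Slco3a1 was detected, with a mean of 0.02.

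Drug and conjugate exporters had mean ratios between -0.13 and 0.28, with a median of 0.15 over 9 detected genes of 12. Abcc10, which exports lipophilic conjugates, was highest at 0.28 (SD 0.16, n = 4, 95% interval 0.07 to 0.48, limma adjusted p = 0.124), with fasted levels of 9.24 to 9.45 and refed levels of 8.91 to 9.15. Abcc2, the canalicular exporter of bilirubin conjugates, had the most even ratios among the transporters after Abcb1b, at 0.12, 0.28, 0.20 and 0.19 (mean 0.20, SD 0.06, n = 4, limma adjusted p = 0.17). Abcc3, which exports conjugates to the blood when bile flow is impaired, averaged 0.21 (SD 0.19, n = 4) and Abcc4 0.06 (SD 0.21, n = 4).

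The multidrug exporters of the P-glycoprotein type, Abcb1a and Abcb1b, averaged -0.13 and -0.10, and the 95% interval of Abcb1b ended at 0.06. Both probes are dim and moved with the background step. The means were -0.44 and -0.30 from the processed signals, and -0.12 and -0.04 with the background fitted on all spots. Abcb1a passed the filter on dim spots only through the refed livers, where its signal was higher, so its direction is not independent of the filter. Abcg2, the breast cancer resistance protein that exports urate and sulfate conjugates, had ratios of -0.32, -0.22, 0.73 and 0.42, and Abcc6, whose loss causes ectopic calcification, 0.59, 0.70, -0.15 and -0.10. For both, the sign followed the dye orientation. The brighter Abcc6 probe averaged 0.26 and the dimmer one 0.01. Abcc5 averaged -0.12 (SD 0.11, n = 4). Abcc1, Abcc12 and Abcg3 were not detected.

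Other Abca proteins, most of them lipid carriers, had mean ratios from -0.24 (Abca2) to 0.23 (Abca8b) and a median of 0.02 over 8 detected genes of 14. Abca6 (0.15, SD 0.50, n = 4), Abca8a (0.03, SD 0.45, n = 4) and Abca2 (SD 0.42, n = 4) differed between arrays by more than their mean. Abca9 averaged -0.15 (SD 0.13, n = 4) and was negative on all arrays, but it passed the filter on dim spots only through the refed livers, where its signal was higher. The mean of Abca9 was -0.56 from the processed signals and -0.07 with the background fitted on all spots. Abca3, the surfactant lipid transporter of the lung, averaged -0.05, Abca5 0.04 and Abca17 0.01. Abca17 passed the filter on dim spots only through the fasted livers. Its mean ratio was 0.32 where the fasted liver carried Cy5 and -0.31 where it carried Cy3.

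The peroxisomal importers of fatty acyl-CoA Abcd2 and Abcd3 averaged -0.08 (SD 0.32, n = 4) and 0.13 (SD 0.41, n = 4), and the 95% interval of both lay inside 1.5-fold. Abcd2 also passed the filter only through the refed livers. Abcc8 and Abcc9, the sulfonylurea receptors that regulate ATP-sensitive potassium channels, averaged 0.07 and 0.20, with Abcc9 positive on all arrays.

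Of the genes listed for organic anion and urate exchange, 6 were on the array under their listed symbols, and 3 of these were detected. Slc22a28, also listed, is on the array under an older name, and both of its probes were called lower in fasted liver, as described under other observations. Slc22a7 (OAT2) had ratios of -0.36, -1.05, 1.02 and 0.28 and a mean of -0.03 (SD 0.88, n = 4, 95% interval -0.78 to 0.73), Slc22a6 (OAT1, mainly renal) averaged 0.08 and Slc22a13 -0.01. Of the remaining Slc22a genes, Slc22a17, a lipocalin receptor, averaged 0.21 (SD 0.32, n = 4), Slc22a15 0.02, Slc22a18 -0.07 and Slc22a23 -0.11.

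A dye effect was the most frequent difference among the transporters. The dye effect is the part of the ratio that turned with the labelling, given as log2 of Cy5 over Cy3. It passed an adjusted p under 0.10 for 16 of 51 genes (31.4%), where 15.3% of all detected genes passed. The signal was brighter with Cy3 for 11 of these genes and with Cy5 for 5, and for 13 of the 16 (81.2%) the mean ratio had opposite signs in the orientations. Of all detected genes with a dye effect, 48.9% were brighter with Cy3 and 79.6% had opposite signs. Without regard to a dye effect, opposite signs were found for 27 of 51 transporters (52.9%) and for 46.7% of all detected genes. The largest effect was that of Slco1a1 (-1.10, limma adjusted p = 0.00601), followed by Slc22a7 (-0.68, limma adjusted p = 0.0624), Abca7 (-0.49, limma adjusted p = 0.0349), Slco1a4 (0.46, limma adjusted p = 0.0947) and Abcg2 (-0.42, limma adjusted p = 0.0414).

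The dye orientations also held different livers, 2 pairs in each, so a dye effect and a difference between those livers cannot be told apart. The count of dye effects depended on the processing. It was 17 of 58 probes here, where 14.7% of all kept probes passed. The count was 3 under median centring, 2 from the processed signals of the scanner software, and 1 without replicate 3 or without replicate 4. Shares over all probes were not computed under those alternatives, so these counts do not show whether dye effects fell for transporters alone. The plot of both orientations sets the transporters against all genes.

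**Figure D3:**
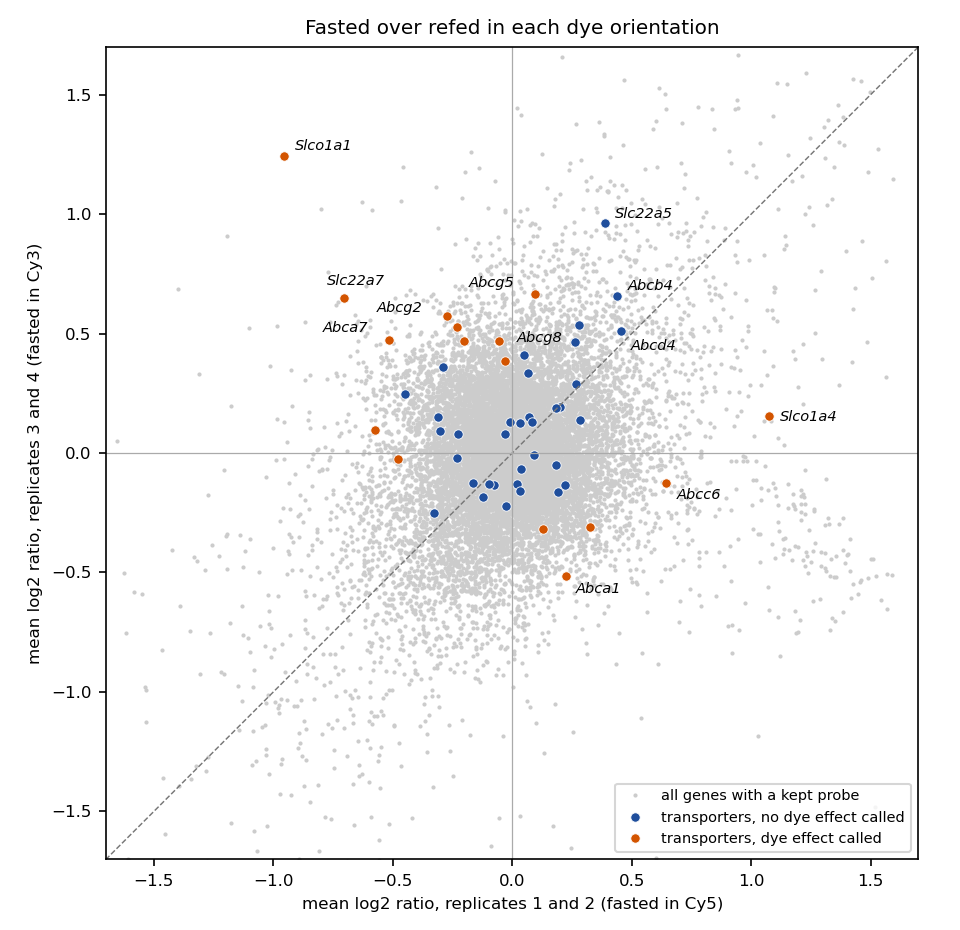
Mean log2 ratio of fasted over refed liver on replicates 1 and 2 (horizontal axis, fasted liver in Cy5) and on replicates 3 and 4 (vertical axis, fasted liver in Cy3), where grey points are all genes with a detected probe, of which 109 lie outside the drawn range, blue and orange points are transporters without and with a dye effect at an adjusted p under 0.10, and the dashed line marks equal ratios. Slco1a1 lies at -0.96 and 1.24, far from that line, whereas Abcb4 and Abcd4 lie near it.

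Genes around transport were read from a list of 40 related carriers, other ABC proteins, scaffolds, nuclear receptors and enzymes that use or supply the substrates. Of 38 detected, 4 were higher and 2 lower in fasted liver, compared with 1.81% and 2.12% of all detected genes, with a median ratio of 0.01. The list was drawn up with earlier results of these data known, so this share is a description. Cpt1a, the enzyme that joins long-chain fatty acids to carnitine, had ratios of 0.43, 1.08, 0.77 and 0.85 (mean 0.78, SD 0.27, n = 4, limma adjusted p = 0.0197). Nr1i2, the xenobiotic receptor PXR, was higher in fasted than in refed liver by 0.75 (SD 0.41, n = 4, limma adjusted p = 0.0482) and Slc15a4, a lysosomal peptide and histidine carrier, by 0.79 (SD 0.49, n = 4, limma adjusted p = 0.0608). Both also had a dye effect at an adjusted p under 0.10. The ratios were 0.30, 0.49, 1.13 and 1.07 for Nr1i2 and 1.17, 1.20, 0.60 and 0.19 for Slc15a4.

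The genes of that list that were lower were Alas1, the rate-limiting enzyme of heme synthesis, at -1.40 (SD 0.41, n = 4, limma adjusted p = 0.0108), and Slc10a2, the apical sodium-dependent bile acid transporter. Alas1 also had a dye effect at an adjusted p under 0.10, with ratios of -0.95, -1.18, -1.83 and -1.66. Slc10a2 had ratios of -0.85, -1.21, -1.29 and -1.19, a mean of -1.14 (SD 0.20, n = 4, limma adjusted p = 0.00479), lower in fasted liver on all arrays. Nr1h4 and Nr1h3, the bile acid and oxysterol receptors FXR and LXR alpha, averaged 0.22 and -0.16 and were not called. Without replicate 2 only Alas1, Cpt1a and Slc10a2 were called on this list.

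Of the 79 transporter genes 28 gave no detected probe, and for 33 of the 42 probes that were left out no array was well above background in either condition. The shares detected were 10 of 16 Abca, 8 of 9 Abcb, 8 of 10 Abcc, 4 of 4 Abcd, 4 of 6 Abcg, 6 of 15 Slco and 11 of 19 Slc22a genes. Slco4a1, Slco4c1, Slco5a1, Slco1c1, Slco1a5 and Slco1a6 were among those not detected, as were Slc22a8, Slc22a12 and Slc22a14. Of the detected genes 7 had more than 1 detected probe, and 0 of these probes were called.

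Processing decided which transporters passed. The plot of ratios by setting shows the mean ratio of 8 transporters under each alternative.

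**Figure D4:**
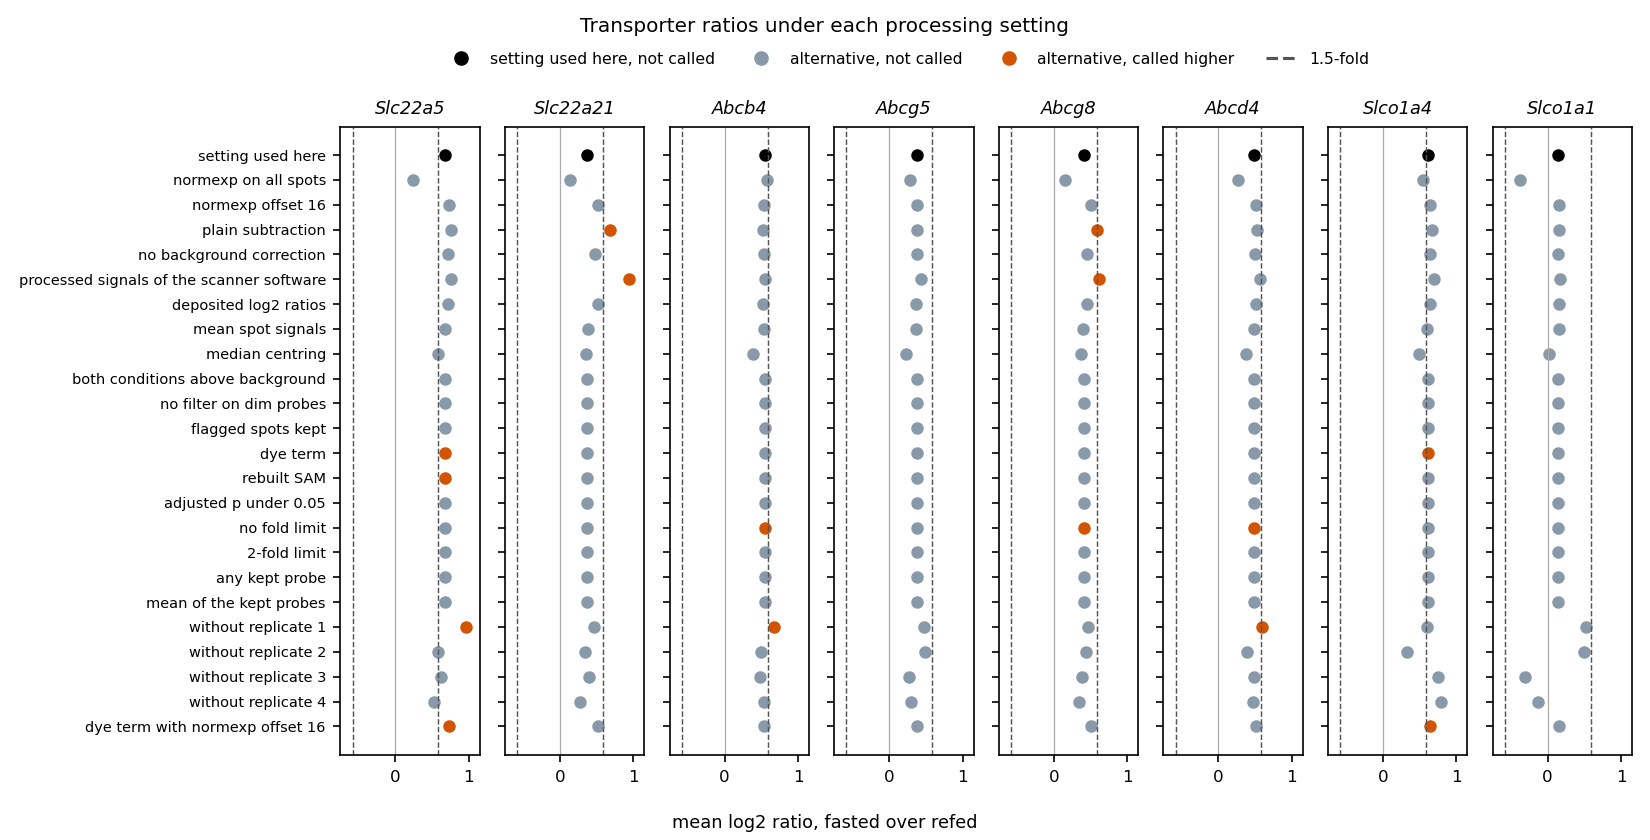
Mean log2 ratio of fasted over refed liver (horizontal axis) of 8 transporter genes under the setting used here (black) and 23 alternatives (rows), where orange marks an alternative under which the gene was called higher and dashed lines mark 1.5-fold. Slc22a5 was called under 4 alternatives, Abcg8 under 3 and Abcg5 and Slco1a1 under 0, and all genes but Slco1a1 stayed positive throughout.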

How the data were processed

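The authors deposited scanner files of 4 arrays (Agilent Feature Extraction 10.10.1.1, per the file headers) with the raw intensity of each spot in both channels, its local background, quality flags and the software's processed intensity. They also deposited log2 ratios normalized by loess in limma. Here median intensities were corrected by normexp with an offset of 50, after leaving out spots whose local background exceeded 3 times the array median, and were normalized by loess within arrays (limma 3.58.1, R 4.3.3). Flagged spots (197 to 322 per array) were left out. A probe was kept if well above background on all 4 arrays in at least 1 condition, and a gene was read by its brightest kept probe (19740 probes, 16102 genes). Per-liver levels were taken after quantile scaling of mean brightness between arrays.

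Ratios were tested two-sided with lmFit and eBayes, p-values of all kept probes were adjusted together by the Benjamini-Hochberg method, and calls needed 1.5-fold and an adjusted p under 0.10. Steps were tested on simulated data. Members, lists and tests were chosen with earlier results of these data known, as was the limit on background. Named genes are those called, the 10 highest and 10 lowest mean ratios, and the detected genes of the role lists. Of 100 transporter probes, 97 matched their symbol through a RefSeq accession, 1 matched another symbol and 2 matched none. Some genes that these rules select are not reported here by name.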

Additional observations from a re-analysis of the deposited data

Results flagged for a closer look

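The largest gap of 1 array to the others was sought in 51 transporter genes, 38 related genes and 8 marker lists, 97 items in all, and 5 exceeded the 95% limit for 4 arrays, where chance alone passes about 1 in 20. Of these, 4 are described. Slc51b stood at 0.17 on replicate 3 and Tap1 at 0.10 on replicate 1. The mean over the hepatocyte markers was 0.31 on replicate 2. The mean over the 3 detected pancreatic acinar markers was -3.93 on replicate 3, where the refed liver therefore gave the higher signal. Without replicate 3 the mean ratio of Slco1a1 was -0.31 in place of 0.14, and that of Slc22a7 was -0.38 in place of -0.03. Leaving out another array moved both the other way, up to 0.53 for Slco1a1 and 0.31 for Slc22a7.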

How the results depend on the processing

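Every count of transporters called lower was 0 under the 23 alternatives. The number called higher, 0 of 51 as reported, became 2 after plain subtraction and from the processed signals (Abcg8 and Slc22a21 in both), 2 with a dye term (Slc22a5 and Slco1a4), 1 by SAM (Slc22a5), 3 with no fold limit (Abcb4, Abcd4 and Abcg8), and between 0 and 3 when 1 replicate was left out. Only leaving out replicate 1 gave any, namely Abcb4, Abcd4 and Slc22a5. The share of all kept probes called was 6.4% after plain subtraction, 8.04% from the processed signals, 4.18% with a dye term, 4.1% by SAM, 10.9% with no fold limit and 4.61% without replicate 1, against 3.92%, 3.92%, 3.92%, 1.96%, 5.88% and 5.88% of transporter genes. A dye term combined with a normexp offset of 16, added after the data were examined, gave 2 (Slc22a5 and Slco1a4). The 6 calls among related genes became 0 with normexp on all spots and 2 at a 2-fold limit (Alas1 and Slc10a2), and 3 to 5 when 1 replicate was left out, the lowest without replicate 2. Dye effects, 17 of 58 transporter probes, became 3 with normexp on all spots, 2 from the processed signals, 3 under median centring and 1 to 11 when 1 replicate was left out, fewest without replicate 3 or 4. The share of all probes with a dye effect was not computed for these alternatives. Over the whole array, 335 probes higher and 409 lower became 5 and 16 with normexp on all spots, 550 and 713 after plain subtraction, 685 and 904 from the processed signals, 935 and 1208 with no fold limit, 99 and 132 at a 2-fold limit, 203 and 252 without replicate 3, and 230 and 635 under median centring, which lowered the share of higher calls from 45% to 26.6% and the transporters' median ratio from 0.04 to -0.00099. The causes were not tested. Each test used ratios within arrays and so was paired by array; no replicate block was added, since the replicate numbers mark no second group. Weak signals on 4 arrays limit what dim probes such as Slc22a21 can show.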

Other observations

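A further Slc22a gene lies outside the choice of genes because the files list it under an older name, Gm5631, which RefSeq now gives as Slc22a28. It was found after the transporter values had been seen. Both of its probes were called lower in fasted liver. The brighter probe had ratios of -1.38, -1.48, -0.59 and -0.22, a mean of -0.92 (SD 0.61, n = 4, limma adjusted p = 0.0682), and the other -1.06, -1.11, -0.74 and -0.57, a mean of -0.87 (SD 0.26, n = 4, limma adjusted p = 0.0144). Every array gave a lower signal in the fasted liver with both probes. The Slc22a family has several closely related copies in the mouse, and how far these probes also read such a copy was not tested. Slc22a13b, listed as 9330176C04Rik, was detected and not called (limma adjusted p = 0.199), and Slc22a22, Slc22a26, Slc22a27 and Slc22a29 were not detected.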
